A study of Mus musculus with 4 samples.

Results

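Histone H3 acetylated at lysine 9 (H3K9ac), a chromatin mark of active promoters, was described over 10 genes of the p53 stress response. They were p53 itself (Trp53), its inhibitors Mdm2 and Mdm4, and the target genes Ccng1, Btg2, Gadd45a, Phlda3, Zmat3, Gdf15 and Sesn2, out of 21887 protein-coding genes. The genes were picked by name, and every peak over a gene span plus 10 kb on either side, called the gene window, was taken. This gave 72 of the 103336 peaks listed for cells with romidepsin and 15 of the 16419 peaks listed for cells without it. The material was chromatin of mouse myeloid-derived suppressor cells (MDSC), a group of immature myeloid cells known for dampening T cell responses, grown from bone marrow and made senescent in vitro. The cells were kept under CM plus romidepsin, an inhibitor of class I histone deacetylases, or under CM alone (the labels do not say what CM stands for), so that both conditions share senescence and CM. Each condition was 1 immunoprecipitated library, and no strain, animal number, dose or time was given in the sources used here. Values of the conditions are therefore given next to each other with no replicate error and no test. In a bulk library, more cells carrying the mark and more of the mark per cell cannot be told apart.

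p53 is a transcription factor that is kept low by the ubiquitin ligase MDM2 and its partner MDM4, and that accumulates after DNA damage and other stress. It then activates genes that stop the cell cycle, help repair or trigger death, and it activates Mdm2, which closes a feedback loop. Arrest through p53 is one of the routes into senescence, and several of its targets, Gdf15 among them, are also used by other stress pathways. Deacetylase inhibitors let acetyl groups build up on histones.

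Promoter sequences of RefSeq (build GRCm38.p6, the assembly of mm10) were read for 11 annotated starts of 9 of the 10 genes, from 250 bases before to 50 after each start. Zmat3 had no entry. The 10-letter p53 consensus decamer was searched on both strands without mismatch. It lay in 4 of the 11 member promoters, against 7.38% of 21255 protein-coding promoters of the same length. Positions count from the start, with the bases before it negative. Each matched decamer lay under a peak in both lists, as did the start of its gene. Over all starts of protein-coding genes, 58.8% lay under a romidepsin peak and 43.4% under a CM peak. The share for decamers in other promoters was not computed. The 3 shorter stretches below show 20 bases on either side of the match, which is in capitals. They run along the gene from chr11:69580284-69580293 (plus strand, match beginning at -75), chr10:117710935-117710944 (minus strand, -186) and chr6:67037438-67037447 (minus strand, -40) for the matches themselves.
Trp53: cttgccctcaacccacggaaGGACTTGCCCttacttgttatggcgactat
Mdm2: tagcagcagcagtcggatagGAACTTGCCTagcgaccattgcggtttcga
Gadd45a: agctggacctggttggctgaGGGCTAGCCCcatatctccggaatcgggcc
The fourth decamer was at Ccng1. A pair of adjacent decamers with no spacer and at most 2 mismatches, called the full p53 consensus here, was found in 0.715% of all promoters. Among the member promoters it was found at Ccng1 alone, at -195 with 1 mismatch. Pairs with a spacer, and sites outside these promoters such as in introns, were not searched. The Ccng1 promoter, at chr11:40755237-40755536 on the minus strand, is shown with that full consensus in capitals, and its second decamer is the exact match.
Ccng1: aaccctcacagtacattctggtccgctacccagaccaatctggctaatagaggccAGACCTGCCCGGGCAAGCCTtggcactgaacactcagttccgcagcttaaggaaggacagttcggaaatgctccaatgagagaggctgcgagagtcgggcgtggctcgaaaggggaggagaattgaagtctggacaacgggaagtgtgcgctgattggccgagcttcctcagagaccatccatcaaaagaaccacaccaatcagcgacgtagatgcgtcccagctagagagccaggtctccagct
Btg2 was shown for another motif, the palindrome TGACGTCA bound by cyclic AMP response factors, which 2.23% of all promoters held. It began at -166, at chr1:134079314-134079321 on the minus strand, under a peak in both lists. The Btg2 promoter held no p53 match.
Btg2: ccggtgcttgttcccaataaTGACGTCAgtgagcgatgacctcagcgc
The Mdm2 and Gdf15 promoters stand for the CpG-rich and CpG-poor ends of the group, with 35 and 1 CpG dinucleotides, which are in capitals. They lie at chr10:117710709-117711008 and chr8:70632407-70632706, both on the minus strand.
Mdm2: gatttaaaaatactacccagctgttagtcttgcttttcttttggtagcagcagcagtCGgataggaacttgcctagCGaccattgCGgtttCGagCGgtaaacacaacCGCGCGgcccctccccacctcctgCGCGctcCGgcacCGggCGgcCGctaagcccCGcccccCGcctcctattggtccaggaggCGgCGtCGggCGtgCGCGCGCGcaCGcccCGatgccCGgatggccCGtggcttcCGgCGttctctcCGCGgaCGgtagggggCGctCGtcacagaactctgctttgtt
Gdf15: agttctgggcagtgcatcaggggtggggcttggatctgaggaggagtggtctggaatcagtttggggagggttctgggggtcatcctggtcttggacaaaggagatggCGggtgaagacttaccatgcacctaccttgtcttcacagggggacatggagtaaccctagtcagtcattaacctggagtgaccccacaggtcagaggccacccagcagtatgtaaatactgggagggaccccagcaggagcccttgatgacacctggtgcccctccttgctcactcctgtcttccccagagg
A match is a run of letters and not evidence of binding.

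The depth of the libraries is unknown, and a deeper library gives more and wider peaks at the same threshold. A fold is the enrichment that the authors' peak caller averaged over a broad peak, and the −log10 q is its evidence, and both belong to 1 list and are not compared between lists. Myeloid marker genes had a peak at a gene end at 9 of 10 genes in both lists, with Cybb the exception. T and B lymphocyte markers had one at 5 of 6 genes with romidepsin and 1 of 6 in CM, and stromal and endothelial markers at 4 of 5 with romidepsin and 1 of 5 in CM. Erythroid markers had one at 2 of 3 in both lists, and epithelial markers at 2 of 2 with romidepsin and 1 of 2 in CM. Over all protein-coding genes these shares were 63.8% with romidepsin and 48.8% in CM. The part of other cells in these values was not tested.

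All 10 genes carried H3K9ac peaks in both conditions, and the acetylated stretch around each was listed as longer with romidepsin. Longer romidepsin peaks were usual across the genome, with a median length ratio of 4.37 over all CM peaks with a partner. A peak in the gene window was present at 10 of 10 genes with romidepsin and 10 of 10 in CM, where the shares over all protein-coding genes were 72.2% with romidepsin and 58.8% in CM. A peak within 1 kb of an annotated gene end was present at 10 of 10 genes with romidepsin (63.8% of all genes) and 9 of 10 in CM (48.8%). The exception was Mdm4, so that 1 of 10 genes had such a peak with romidepsin only, against 15.0% of all genes. No gene window held a romidepsin peak without a CM peak, which 13.4% of all gene windows did.

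Romidepsin peaks covered 53.5% of the summed gene windows and CM peaks 7.16%. By gene, the share had a median of 58.0% with romidepsin (9.76% to 92.6%) and 7.30% in CM (2.73% to 14.7%). Over the 10681 protein-coding genes that had a CM peak at a gene end, the median was 32.6% with romidepsin and 4.87% in CM. Over all protein-coding genes it was 12.0% with romidepsin and 1.46% in CM. A window covered to at least 80% by romidepsin peaks was found at Gdf15, Sesn2 and Btg2, which is 3 of 10 genes against 4.00% of all genes. The share was at least 50% at 6 of 10 genes, against 17.3%. CM peaks covered at least 10% of the window at 4 of 10 genes, against 12.3% of all genes. These counts were not made among the genes with a CM peak at a gene end. The upper quartile among those genes was 56.6% with romidepsin and 9.50% in CM. A romidepsin share of 50% was thus more usual among them than over all genes. The romidepsin share was at least 4 times the CM share at 9 of 10 genes, Zmat3 being the exception, against 42.0% of all genes and 71.4% of the 12879 genes that had a CM peak in the window. With equal numbers of strongest peaks in both lists it was so at 4 of 10 genes, namely Mdm4, Btg2, Gdf15 and Sesn2. The share over all genes was not computed in that setting, and 42.0% and 71.4% belong to the full lists. The romidepsin share itself was then 28.5% at Trp53, 21.4% at Mdm2 and 20.2% at Gadd45a, and ranged over the 10 genes between 6.02% and 80.5%. Short genes have windows made mostly of flank, so shares are not equally easy to reach at every gene.

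**Figure D1:**
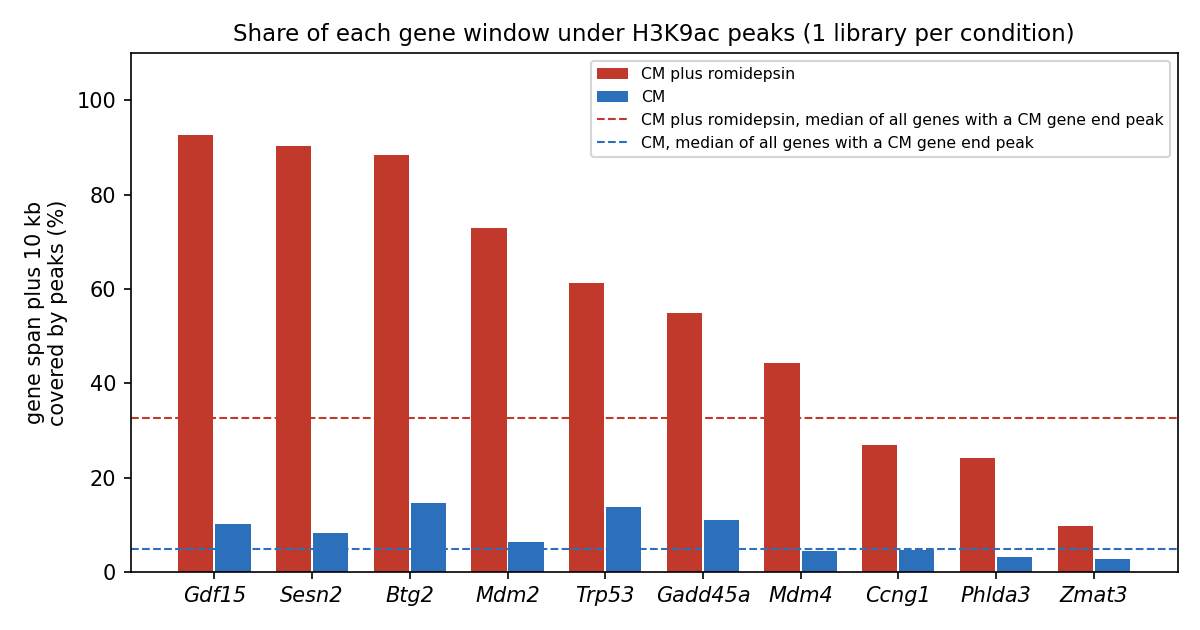
Share of each gene window (gene span plus 10 kb, in percent) covered by H3K9ac peaks with CM plus romidepsin (red, left bar) and CM (blue, right bar), 1 library each, with dashed lines at the medians over all genes with a CM gene end peak. Gdf15, Sesn2 and Btg2 reach 88.3% to 92.6% with romidepsin, whereas Zmat3 stays at 9.76%.

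The order of the genes was not the same in the 2 lists. With romidepsin it ran Gdf15, Sesn2, Btg2, Mdm2, Trp53, Gadd45a, Mdm4, Ccng1, Phlda3, Zmat3. In CM it ran Btg2, Trp53, Gadd45a, Gdf15, Sesn2, Mdm2, Ccng1, Mdm4, Phlda3, Zmat3. Phlda3 and Zmat3 were lowest in both. With 1 library a condition, the spread that would separate neighbours in these orders is unknown.

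**Figure D2:**
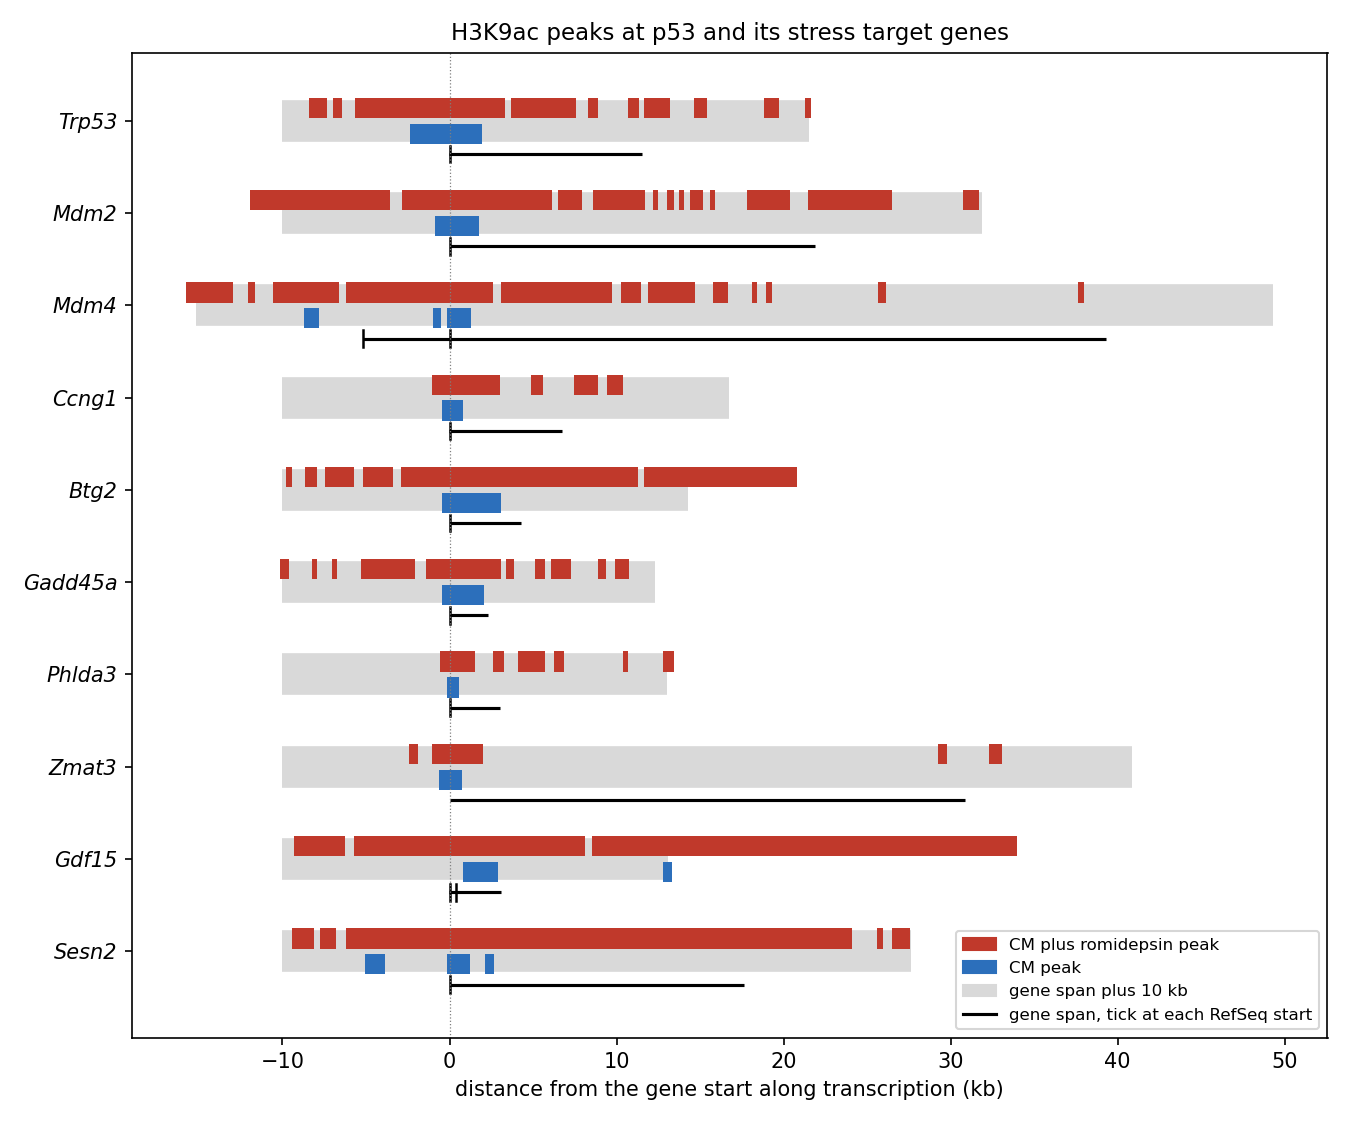
Peaks of CM plus romidepsin (red, upper track) and CM (blue, lower track) at each gene, by distance in kb from its start along transcription; grey bands are the gene windows and black lines the gene spans with a tick at each RefSeq start. Zmat3 is drawn from the gene end that carried peaks, 8 of the 11 starts lie under a CM peak, other CM peaks lie apart from a start (as at Lrrc25 near Gdf15), and red blocks run across Gdf15, Sesn2 and Btg2.

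At Trp53 the start lay under a wide peak in both conditions. The peak ran from 69574716 to 69583705 on chromosome 11 with romidepsin (8990 bp, fold 4.65, −log10 q 9.09) and from 69577986 to 69582293 in CM (4308 bp, fold 5.96, −log10 q 5.74). In CM it was the longest peak of the 10 genes, longer than 97.7% of all CM peaks. With romidepsin its fold was the highest of the 72 peaks and above 99.6% of that list. The romidepsin peak reached 5643 bp before the start and 3346 bp after it, and the CM peak 2373 bp before and 1934 bp after it. Both peaks also covered the boundary of Wrap53 nearest to Trp53, at 69580250. Wrap53 is the neighbouring gene for a telomerase and Cajal body protein, so the peaks cannot be assigned to Trp53 alone. Smaller romidepsin peaks, 9 in number, followed along the gene and its flanks, of which the longest (3913 bp, fold 3.27) lay inside Trp53, and romidepsin peaks covered 74.1% of the gene span against 16.9% in CM.

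Mdm2 encodes the ligase that marks p53 for degradation. Its start on chromosome 10 had a peak of 8971 bp with romidepsin (117704622 to 117713592, fold 4.06) and 2638 bp in CM (117708992 to 117711629, fold 6.29). The added stretch lay mainly on the gene side, with 1963 bp before and 4370 bp after the start. A separate romidepsin peak of 8367 bp (fold 3.18) began upstream of the start peak, and one of 4982 bp (fold 3.26) covered the other gene end and reached Cpm. In CM this window held the start peak and no other. The covered share of the window was 73.0% with romidepsin and 6.30% in CM, 11.6 times as much. This was the highest ratio of the 10 genes in the full lists, but with equal numbers of strongest peaks it was 3.40, below those of Sesn2, Gdf15, Mdm4 and Btg2.

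Mdm4 encodes a relative of MDM2 that binds p53 and blocks its activity. RefSeq gives 2 starts, at 133025416 and 133030587 on chromosome 1. With romidepsin 1 peak of 8796 bp (133022834 to 133031629, fold 3.69) lay over both starts. In CM the inner start was under a peak of 1446 bp (133024150 to 133025595, fold 5.78), while the outer start was 2624 bp from the nearest CM peak. That CM peak (133033211 to 133034139, 929 bp, fold 4.82) lay upstream over a lysine tRNA gene, n-TKctt26. A listed peak was thus over the inner start alone in CM and over both starts with romidepsin. Signal below the peak threshold was not read. Another CM peak of 530 bp (fold 3.64) lay between the starts, over the pseudogene Gm29257. Further romidepsin peaks of 6663 and 2801 bp followed within the gene, and the remaining ones in the gene were short, between 299 and 1222 bp.

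Ccng1, for cyclin G1, and Zmat3, for an RNA-binding zinc finger protein, are p53 targets that act back on p53 or its transcripts. Ccng1, the gene with the full p53 consensus shown above, had a start peak of 4093 bp with romidepsin (chromosome 11, 40752269 to 40756361, fold 3.82) and 1268 bp in CM (40754469 to 40755736, fold 6.58). Zmat3 had a peak over 1 gene end of 3064 bp with romidepsin (chromosome 3, 32363670 to 32366733, fold 4.18) and 1391 bp in CM (32364890 to 32366280, fold 6.41). Both CM peaks had a high fold in their list, above 87.9% and 84.4% of CM peaks. At Ccng1 the romidepsin peak added 625 bp before and 2200 bp after the start. The peak at Zmat3 also covered the lncRNA gene 4930429B21Rik. The rest of the 30874 bp Zmat3 gene held 1 romidepsin peak of 518 bp and no CM peak, and 8.14% of the span was covered with romidepsin and 2.51% in CM. Ccng1 had 55.7% of its span covered with romidepsin and 12.4% in CM.

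Btg2 had a longer start peak than Gadd45a and Phlda3 in both lists. Btg2 encodes an antiproliferative protein that recruits mRNA deadenylation. Its start peak was 14229 bp long with romidepsin (chromosome 1, 134067855 to 134082083, fold 4.05) and 3573 bp in CM (134076062 to 134079634, fold 6.63). The added stretch lay mostly beyond the start, 2449 bp before it and 8207 bp after it, and so passed the end of this short gene. Romidepsin peaks covered the whole gene span (100%), against 72.1% in CM. A second romidepsin peak of 9131 bp (fold 4.26) lay beyond the end of Btg2 and overlapped 2 CM peaks outside the window.

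Gadd45a, which encodes a damage-induced protein that binds repair and cell cycle factors, had the smallest length ratio of the start peaks. Its start peak measured 4509 bp with romidepsin (chromosome 6, 67034313 to 67038821, fold 4.56) and 2465 bp in CM (67035367 to 67037831, fold 5.92), a ratio of 1.83. The added stretches were nearly even, 990 bp before and 1054 bp after the start. CM peaks already covered 88.3% of this short gene and romidepsin peaks covered 100%. The lncRNA gene E230016M11Rik overlaps the same region, and ChIP reads carry no strand.

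Phlda3, which encodes a pleckstrin domain protein that restrains AKT, had the shortest start peaks of the 10 genes. The peak was 2097 bp with romidepsin (chromosome 1, 135765517 to 135767613, fold 3.45, −log10 q 4.59) and 736 bp in CM (135765916 to 135766651, fold 3.95, −log10 q 2.07). It was also among the weaker CM peaks, with a fold above 22.7% of that list. No CM peak remained at Phlda3, nor any romidepsin peak, when a −log10 q of at least 5 was required.

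Gdf15, which encodes a stress-induced secreted cytokine of the TGF-beta superfamily, had a listed CM peak inside the gene but none over its starts. The CM peak on chromosome 8 (70629542 to 70631642, 2101 bp, fold 4.17) ended 453 bp from the nearer start at 70632095 and 814 bp from the other at 70632456. With romidepsin a peak of 13815 bp (70624354 to 70638168, fold 4.07) covered both starts and the whole gene, as well as the lncRNA gene Gm34154. A second romidepsin peak of 25466 bp (70598461 to 70623926, fold 4.09) lay over Ssbp4 and Lrrc25. It entered the window from the side of the gene's end and overlapped 4 CM peaks. Of these, the 519 bp peak at Lrrc25 reached into the window. The romidepsin share of the Gdf15 window, 92.6%, was above that of 99.0% of all genes, and the CM share, 10.2%, above that of 88.0%.

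Sesn2 encodes sestrin 2, a stress-induced protein that restrains mTORC1 signalling. It had the longest peak of the 10 genes. With romidepsin 1 peak of 30305 bp (chromosome 4, 132486332 to 132516636, fold 3.80), longer than 99.9% of that list, spanned the gene and passed both of its ends. CM had 3 separate peaks there, of 543, 1378 and 1208 bp, with folds of 3.49, 7.26 and 3.94. The middle one lay over the start (132509229 to 132510606), and its fold was the highest of the 15 CM peaks and above 96.8% of all CM peaks. The romidepsin peak reached 6180 bp before the start and 24124 bp after it, against 150 bp before and 1227 bp after it for the CM peak.

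Taking the starts as a group, all 11 RefSeq starts lay under a romidepsin peak (58.8% of 21263 starts of protein-coding genes) and 8 of 11 under a CM peak (43.4%). The 3 with romidepsin only (15.6% of all starts) were the outer start of Mdm4 and both starts of Gdf15. At the 8 starts under both, the median peak length was 8883.5 bp with romidepsin and 1955.5 bp in CM. The median of the length ratio was 3.31, close to the 3.29 over all 9191 starts under both. The romidepsin peak added more sequence after the start than before it at 6 of 8 member starts, against 65.6% of all such starts. The exceptions were Trp53 and Mdm4.

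The 3 starts without a CM peak had the fewest CpG dinucleotides of the 11 promoters. They held 1, 4 and 7 CpG in 300 bases, as the Gdf15 sequence above shows for the lowest, whereas the 8 starts under a CM peak held 9 to 35. Over all promoters, the median was 23 CpG (interquartile range 16 to 31) where the start was under a CM peak and 5 (2 to 13) where it was not. With romidepsin, starts were under a peak at both ends of this range. The length of the romidepsin peak did not follow the CpG count in any simple order: Phlda3 with 26 CpG had the shortest and Sesn2 with 23 the longest.

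**Figure D3:**
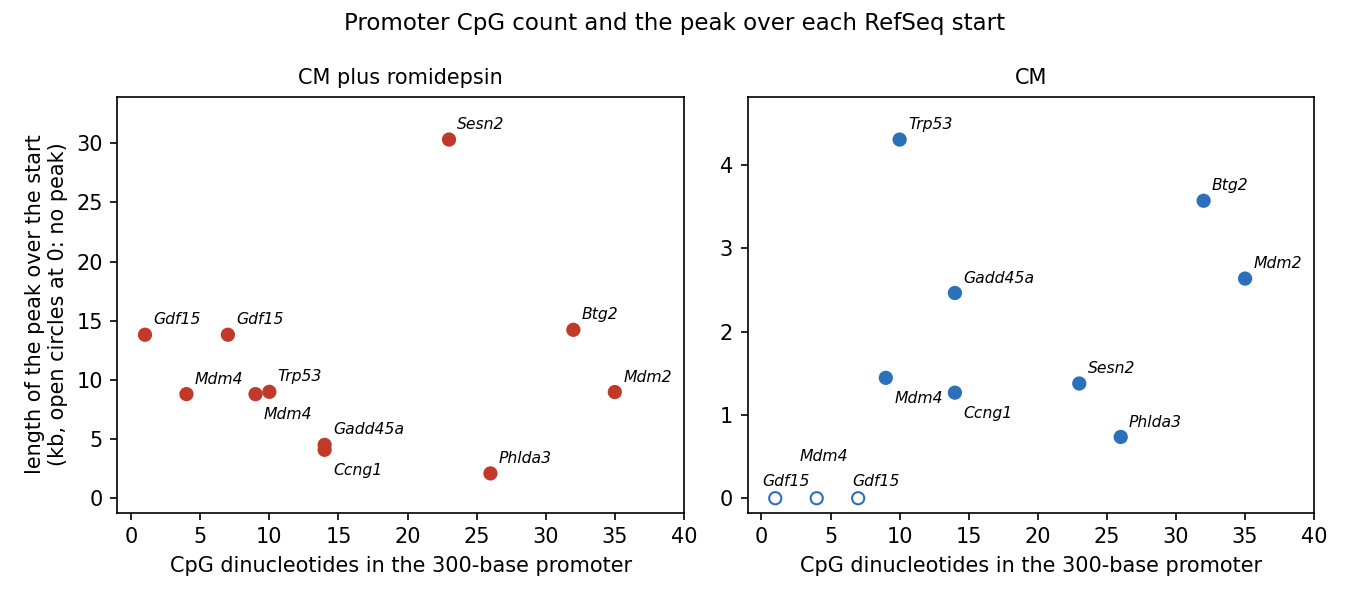
Length in kb of the peak over each of the 11 RefSeq starts against the CpG count of its 300-base promoter, with CM plus romidepsin on the left and CM on the right (the vertical scales differ). Open circles at 0 in the CM panel are the 3 starts without a CM peak, which hold 1, 4 and 7 CpG.

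Away from the CM peaks, the full romidepsin list held many short and weak peaks. Of the 72 romidepsin peaks, 59 overlapped no CM peak, with a median length of 787 bp and a fold of 2.15 to 3.34. The other 13 had a median length of 8971 bp and a fold of 2.96 to 4.65. The share without a CM peak was not computed over the whole list of 103336 romidepsin peaks. With 16419 CM peaks to overlap, it cannot be read as particular to these windows. Of the 59, 22 lay less than 5000 bp from a CM peak, and 10 were longer than 2000 bp. By position, 9 of the 72 romidepsin peaks lay over a start, 6 elsewhere at a gene end, 20 inside a gene and 37 in the flanks. Each of the 15 CM peaks had a romidepsin partner, which was longer each time, by a median of 4.26 times (1.83 to 55.8), close to the 4.37 over all CM peaks with a partner. The 15 ratios rest on 12 different romidepsin peaks, since the 30305 bp peak at Sesn2 was the partner of 3 CM peaks and the 8796 bp peak at Mdm4 of 2. When the romidepsin list was restricted to its 16419 strongest peaks, 13 peaks remained in the windows, 12 of them over a CM peak, and the covered share was 32.6%. The share of that whole shorter list over a CM peak was not computed. In that setting Sesn2 (80.5%), Gdf15 (79.5%) and Btg2 (69.4%) again had the highest shares.

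Other genes of the p53 pathway had gene end peaks in both lists with few exceptions. Of 37 listed genes 36 were matched by name, and 33 of them had a gene end peak with romidepsin and 31 in CM. The shares over all genes are those given above, 63.8% with romidepsin and 48.8% in CM. All 5 feedback genes, all 5 matched arrest genes and all 5 repair and nucleotide supply genes had a peak in both. Metabolism and stress genes had one at 4 of 5 in both lists, with Ak1 the exception. Among arrest genes Plk3, a stress kinase, had 21783 bp with romidepsin and 2155 bp in CM, and Plk2, its relative, had 3704 bp with romidepsin and 1583 bp in CM. In the feedback group Pidd1, which encodes a scaffold of the PIDDosome that cleaves MDM2 through caspase-2, had 48130 bp with romidepsin and 1730 bp in CM. Each length is that of a single gene end peak, and other CM peaks can lie in the same window. The romidepsin peaks at Plk3 and Pidd1 passed both ends of their genes. That at Pidd1 ran from 141430546 to 141478675 on chromosome 7, around a gene span of 141438113 to 141447565. Its length cannot be assigned to Pidd1 alone. Romidepsin and CM peaks covered 96.5% and 27.4% of the Pidd1 window, and 87.9% and 26.8% of the Plk3 window. Ppm1d, for the phosphatase WIP1 that switches p53 signalling off, had 4948 bp with romidepsin and 2312 bp in CM.

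Among apoptosis targets a gene end peak was present at 9 of 10 with romidepsin and 8 of 10 in CM. Bax, for the pore-forming effector, had a gene end peak of 13517 bp with romidepsin, which passed both gene ends, and 1275 bp in CM. That CM peak lay beside the gene span, and CM peaks covered 24.6% of the Bax window, against 71.8% with romidepsin. Bbc3, for the BH3-only protein PUMA, had 4075 bp with romidepsin and 2468 bp in CM. Perp, for a desmosomal membrane protein, had a 654 bp peak with romidepsin (−log10 q 1.88) and none in CM, and Eda2r had none in either. Of the kinases that activate p53, Atm had 3372 bp with romidepsin and 1185 bp in CM, while the Atr peaks, 4146 bp with romidepsin and 1988 bp in CM, lay at opposite ends of the gene. The highest-fold gene end peak was taken in each list separately, and Atr was the 1 gene of the 31 with a pair whose peaks did not overlap. The relatives of p53 differed: Trp73 had a gene end peak of 4491 bp with romidepsin only, and Trp63 had none in either list. Over the 36 genes the covered share of the window had a median of 27.5% with romidepsin (0 to 96.5%) and 4.49% in CM (0 to 27.4%), below the medians of the 10 genes. The medians of the 36 were also below those of genes with a CM gene end peak, 32.6% and 4.87%. They were above those of all protein-coding genes, 12.0% and 1.46%.

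**Figure D4:**
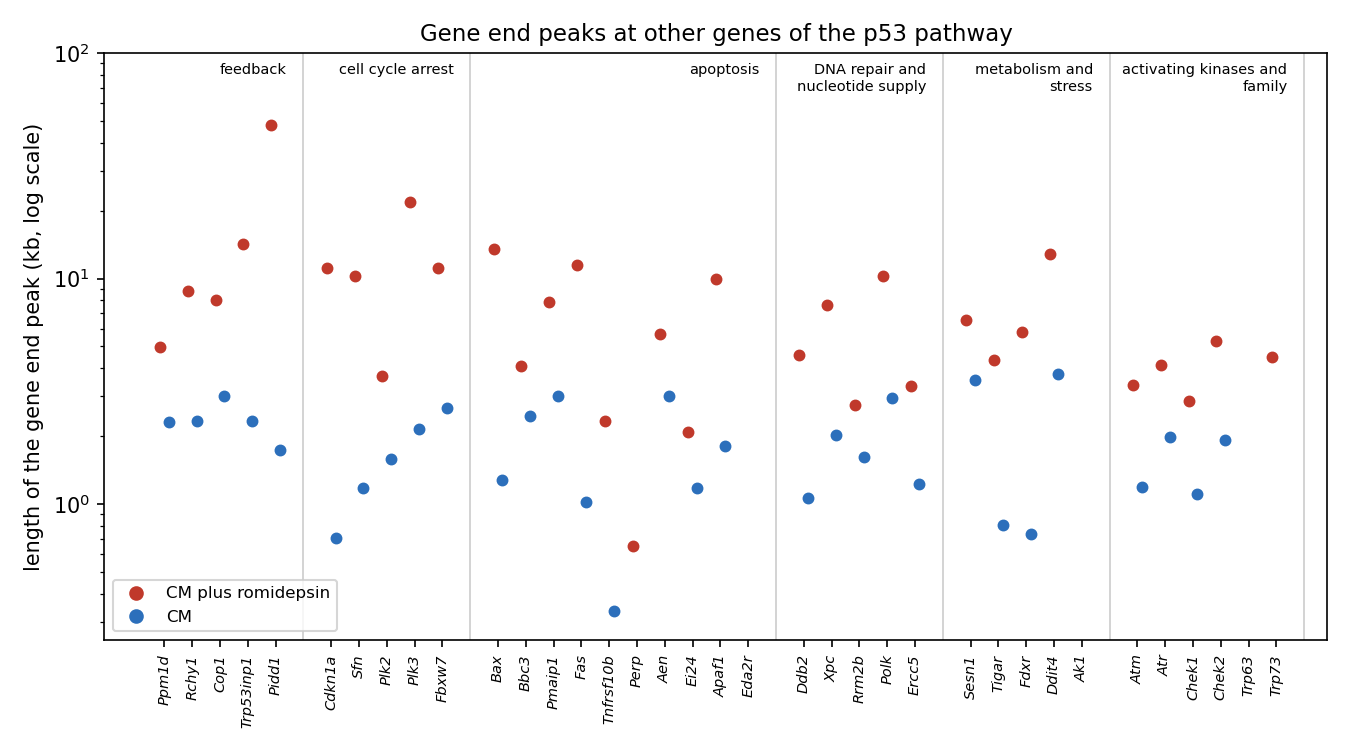
Length in kb (log scale) of the gene end peak with the highest fold, taken in each list separately, at 36 other p53 pathway genes, grouped by role, with CM plus romidepsin in red on the left and CM in blue on the right of each gene; no point means no gene end peak. Pidd1 reaches 48130 bp with romidepsin, in a peak that passes both ends of the gene, and Eda2r, Ak1 and Trp63 have no point.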

How the data were processed

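H3K9ac peak lists of 2 immunoprecipitated libraries, 1 with CM plus romidepsin and 1 with CM, were used, while the 2 input libraries are not analysed here. Per the submitters' processing notes, Bowtie2 (2.4.4), MACS2 (2.2.7.1) and deepTools (3.5.1) were used with mm10. The sources used here give no settings, read filters or depth, nor whether the input was the control. For each broad peak the authors deposited a score, a fold enrichment (a ratio), a −log10 p-value and a −log10 q-value, each averaged over the peak. The score was not used.

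Positions were written with a first base of 1. Gene spans came from RefSeq (GRCm38.p6), and starts and promoter sequences from its promoter table, whose minus-strand rows were checked to read along the gene. An overlap of at least 1 bp counted. Shares were computed in Python 3.11.15 with pandas 2.3.3, and overlap and motif routines were tested on simulated data. A start is a base under a peak, and a gene end is 1 kb either side of an annotated end. With 1 library per condition there was no test. The 10 genes and the pathway and marker lists were chosen with earlier results of these data known. All 10 genes were named, and of the pathway list those in the figure. Ptprv was not matched as a protein-coding gene. Alternatives covered −log10 q, fold, list length, merging, flank, gene end window and overlap.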

Additional observations from a re-analysis of the deposited data

How the results depend on the processing

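No paired analysis was possible because each condition had 1 library and no test was run. With 1 library a condition no replicate could be left out, depth is unknown, and peak width and number depend on it. Counts of genes with a peak were within 1.5 times of the reported value in the settings tried, except that gene end peaks in the pathway list numbered 20 in CM at a −log10 q of at least 5. Numbers of peaks over the windows moved most. With romidepsin they were 43 at a −log10 q of at least 2, 11 at 5, 21 at a fold of at least 3, 13 with equal numbers of strongest peaks, 34 with peaks under 1 kb apart merged, 33 without flank and 115 with a flank of 25 kb. In CM they were 28 with a flank of 25 kb and 8 when the −log10 q was at least 5. The share of the windows covered with romidepsin was 32.6% with equal numbers and 30.0% when the −log10 q was at least 5, and in CM it was 11.6% without flank. The share of each gene window, tried under 7 settings chosen after seeing the data, was higher with romidepsin than in CM in 69 of 70 cases. The remaining case was Phlda3 at a −log10 q of at least 5, where neither list had a peak. The settings reuse the same 2 lists, and the direction was not counted over all genes. In the full lists, romidepsin minus CM had quartiles of 12.0 and 46.3 percentage points over all genes with a CM gene end peak. A higher romidepsin share was therefore usual and not particular to the 10 genes. The size of the difference at the 10 genes moved by over 1.5 times in 30 of the 70 cases. With equal numbers of strongest peaks it was 15.1 percentage points at Mdm2, 14.9 at Trp53 and 9.16 at Gadd45a, against 66.7, 47.5 and 43.8 in the full lists. The median length ratio was 3.31 to 5.03.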

Other observations

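1 CM peak in the flanks lay over a tRNA gene. Upstream of Mdm4, the CM peak of 929 bp covered the lysine tRNA gene n-TKctt26 (133033962 to 133034034 on chromosome 1) and ended 187 bp short of n-TKctt25. The romidepsin peak of 3962 bp (fold 2.96) covered both. Upstream of Sesn2, the alanine tRNA gene n-TAagc8 (132516008 to 132516079 on chromosome 4) lay within the romidepsin peak of 30305 bp and 489 bp from the CM peak of 1208 bp. These were the 3 tRNA genes in the 10 gene windows. Over 408 annotated tRNA genes, 60.5% lay under a romidepsin peak and 26.7% under a CM peak, and 65.4% had a romidepsin peak and 47.1% a CM peak within 1 kb. Near-identical tRNA copies share reads, so peaks directly over them are uncertain.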
